A study of Bos taurus with 12 samples.

Results

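The low methylated DNA of tender and tough beef was compared over 4 of the 12 MBD-seq libraries of the study, namely LTE_1 and LTE_2 from tender beef and LTO_1 and LTO_2 from tough beef. Peaks of these 4 libraries that shared 1 bp or more were joined into regions on chromosomes 1 to 29 (bosTau8), which gave 49965 regions. Joined in the same way, the peaks of all 12 libraries gave 74459 regions. The animals were Angus steers of one cohort on the same diet, slaughtered at about 12 months of age, and the sources give no treatment. Tender and tough name the groups with the lowest and the greatest Warner-Bratzler shear force of aged longissimus muscle, and 2 animals were drawn at random from each. Each library therefore stands for 1 animal, and the groups were chosen on the phenotype, so the 2 groups can also differ in other traits. The study reported a significant difference in crude fat content between the full tender and tough groups from which these animals came. Here it cannot be told apart from the difference in tenderness. The sample labels call the muscle longissimus dorsi and the study's methods longissimus lumborum, and the lists of genomic peaks hold no marker that could check the tissue or the methylation level.

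In mammals DNA methylation sits mostly on the cytosine of CpG dinucleotides, and methyl-CpG binding domain proteins recognise it. MBD-seq uses such a protein to pull methylated fragments out of sheared DNA, and fragments are then released in steps of different salt concentration, so that each eluate holds DNA that was bound with a different strength. Beef tenderness depends on the breakdown of myofibrillar proteins after slaughter, in which calpains take part, and on the connective tissue of the muscle, and DNA methylation is one of the layers that can mark genes in muscle differently between animals. The sources disagree on which salt step gave the low methylated DNA, so these libraries are named only by the methylation level that the authors gave them.

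LTE_1 stood apart from the other libraries in depth. After duplicate removal it had 5770411 tags, against 7165381 in LTE_2, 7981292 in LTO_1 and 7212507 in LTO_2. Duplicates made up 29.3% of the mapped tags of LTE_1 and between 40.5% and 42.8% in the other 3. On chromosomes 1 to 29 it had 9555 peaks, against 16881 in LTE_2, 27783 in LTO_1 and 28599 in LTO_2. LTE_2 and LTO_2 had nearly the same depth and differed in the number of peaks. This sets 1 animal against 1 animal and was not tested. Per 1000000 tags there were 1656 peaks in LTE_1, 2356 in LTE_2, 3481 in LTO_1 and 3965 in LTO_2. The main counts and calls are therefore also given without LTE_1, which leaves LTE_2 as the only tender library. In such a fit limma takes the spread from the tough pair alone, and LTE_2 is assumed to vary in the same way.

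The peaks fell into 2 classes by their pileup, the number of overlapping extended tags at the summit. Most peaks lay near a pileup of 10, a smaller number lay near 100, and few lay between. A pileup of 50, chosen after the values were seen, was used to separate them. Peaks below 50 numbered 5721 in LTE_1, 12158 in LTE_2, 22706 in LTO_1 and 23165 in LTO_2, which is 2.57 times as many in tough as in tender beef on average. This ratio was 1.89 without LTE_1 and 4.01 without LTE_2. Peaks of 50 or more were 3834, 4723, 5077 and 5434 in the same order, or 1.23 times as many (1.11 without LTE_1), while the tags were 1.17 times as many (1.06 without LTE_1). In both classes each tough library lay above each tender library, and with 2 against 2 libraries the exact permutation test gave p = 0.333, the smallest value it can reach. The share of peaks of 50 or more was 40.1% in LTE_1, 28.0% in LTE_2, 18.3% in LTO_1 and 19.0% in LTO_2.

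The classes also differed in the other values of the lists. The fold enrichment, the ratio of the pileup to the local background in the authors' peak calling, had medians from 5.97 to 6.51 for the peaks below 50 and from 2.19 to 2.67 for those of 50 or more. Peaks of 50 or more were wide, with library medians from 303 to 347 bp, and those below 50 were narrow, from 164 to 189 bp. Since at most 1 tag per position and strand was counted, a pileup cannot exceed 2 tags for each base of the fragment length d to which tags were extended. The highest pileups, 299, 290, 311 and 283, lay at 96.5%, 98.6%, 94.2% and 96.9% of that ceiling in LTE_1, LTE_2, LTO_1 and LTO_2. The pileup of the strongest regions was thus bounded by the duplicate rule, and d itself differed between the libraries (155, 147, 165 and 146 bp).

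**Figure D1:**
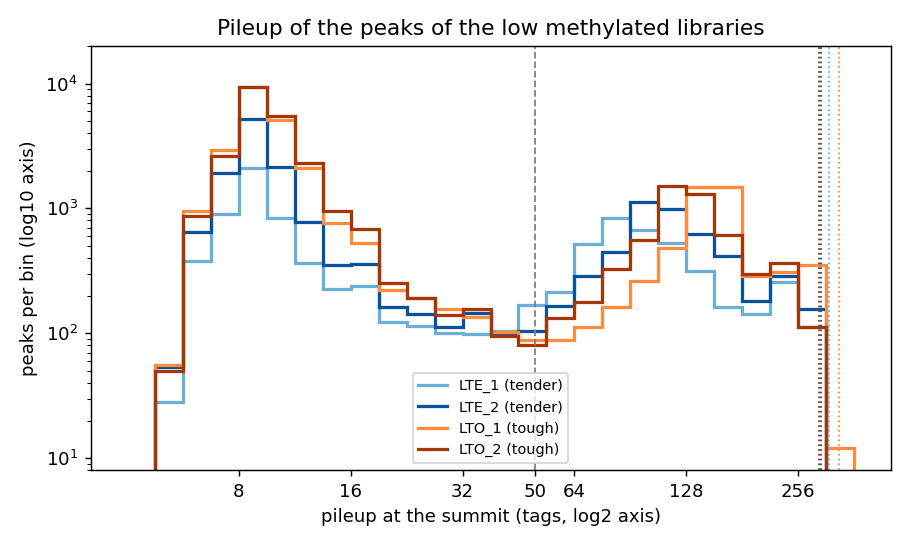
Number of peaks on chromosomes 1 to 29 by pileup at the summit (log2 axis) in each of the 4 libraries (log10 axis); the dashed line marks a pileup of 50 and the dotted lines the ceiling of each library. Below 50 both tough libraries lie above both tender libraries, whereas the peaks of 50 or more differ less in number and are centred lower in LTE_1.

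In terms of presence, 9202 regions (18.4%) had a peak in LTE_1, 16482 (33.0%) in LTE_2, 27629 (55.3%) in LTO_1 and 28079 (56.2%) in LTO_2. The mean of the tender libraries was 12842 ± 5148 and that of the tough libraries 27854 ± 318 (SD, n = 2), 2.17 times as many, with no overlap between the groups (two-sided exact permutation test on the log2 scale, p = 0.333, the smallest possible). The difference of the log2 means was 1.18, and it was 0.76 without LTE_1. Most regions were seen once. A peak in only 1 library was found for 32532 regions (65.1%), in 2 libraries for 8625, in 3 for 3622 and in all 4 for 5186 (10.4%). Of the regions in 3 libraries, 2350 lacked a peak only in LTE_1 and 689 only in LTE_2, while 344 lacked one only in LTO_1 and 239 only in LTO_2. Tender and tough beef had 12555 regions (25.1%) in common, counting any library of each, while 30300 had peaks only in tough and 7110 only in tender libraries.

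Regions with a peak in both tough libraries and in neither tender library, called tough-specific here, numbered 4628. Those with a peak in both tender libraries and neither tough library, called tender-specific, numbered 250. Presence was not tested region by region, since an exact test of 2 against 2 libraries cannot go below 0.333. Of the other regions in exactly 2 libraries, 1489 were shared by LTE_2 and LTO_2, 1279 by LTE_2 and LTO_1, 509 by LTE_1 and LTO_2, and 470 by LTE_1 and LTO_1. Both numbers moved when a library was left out, and the class then asks for a peak in 1 library of that group only. Without LTE_1, 5312 regions were tough-specific and 5610 were found in LTE_2 alone, whereas 13279 were found in LTO_1 alone and 13416 in LTO_2 alone. Without LTE_2 there were 6979 tough-specific regions and 1781 with a peak only in LTE_1. When a tough library was left out, the regions of the remaining tough library that lacked a tender peak numbered 17677 (without LTO_1) and 17511 (without LTO_2), with 491 and 595 tender-specific regions.

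With the 9555 strongest peaks of each library, the number held by LTE_1, the imbalance was mostly gone. There were 580 tough-specific and 492 tender-specific regions, between 335 and 388 regions for each pair of 1 tender and 1 tough library, and 4048 regions in all 4. Any 2 libraries then had between 52.3% and 57.4% of their regions in common. Such a selection equalises the lists by its construction and also drops the weak peaks in which the tough libraries were richer. With the 16881 strongest peaks of the other 3 libraries and without LTE_1, a setting added after seeing the data, 1828 regions were tough-specific, 7503 were found in LTE_2 alone, 7480 in LTO_1 alone and 7168 in LTO_2 alone. Pairs of LTE_2 with a tough library then shared 1484 (LTO_1) and 1494 (LTO_2) regions.

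**Figure D2:**
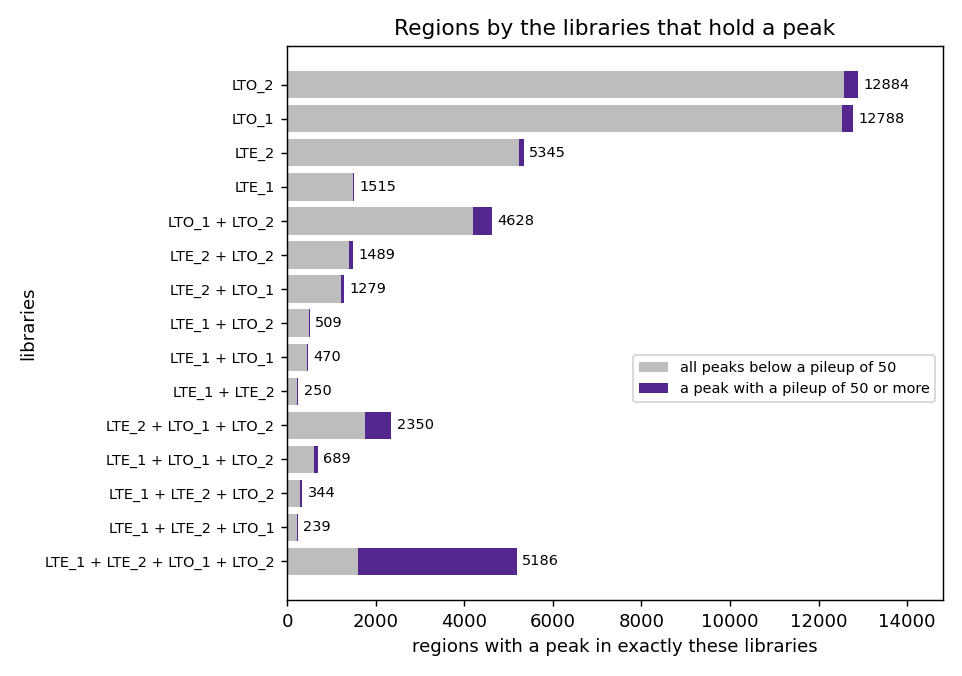
Number of regions with a peak in exactly the libraries named on the vertical axis, split by whether any of their peaks reached a pileup of 50. The 5186 regions of all 4 libraries were mostly of the high pileup class (3589), whereas the regions of single libraries and the 4628 of both tough libraries were mostly below 50.

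Most regions of high pileup were shared by all 4 libraries, and most of those of low pileup had a peak in only 1. A pileup of 50 or more in any library was reached by 5700 regions, of which 3589 had a peak in all 4 libraries and 703 in only 1. Of the 44265 regions below 50, 1597 had a peak in all 4 libraries and 31829 in only 1. In the regions of all 4 libraries, 69.2% were of 50 or more, against 436 of the 4628 tough-specific and 20 of the 250 tender-specific regions.

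Peaks were ranked by the −log10 p of the authors in 10 classes of equal size, from 1 (weakest) to 10 (strongest). The share also found in another library rose from class 7 to class 10, but it did not rise steadily over the weaker classes. For LTO_1 peaks found in LTO_2 it was 29.6%, 28.1%, 35.2%, 23.1%, 42.3% and 25.3% in classes 1 to 6, and 43.6% in class 7. In the strongest class, between 97.0% and 100% were overlapped in any other library. In the weakest class, peaks of LTO_1 were found at 29.6% in LTO_2, 13.2% in LTE_2 and 7.41% in LTE_1, and those of LTO_2 at 27.6% in LTO_1, 13.4% in LTE_2 and 6.19% in LTE_1. The weakest class of LTE_2 was found more often in the tough libraries (36.2% in LTO_1 and 39.1% in LTO_2) than in the other tender library (11.8%). The same held for LTE_1, with 44.7% in LTO_1 and 47.7% in LTO_2, against 32.5% in LTE_2. At the weak end the order of the shares was that of the number of peaks in the list that was searched.

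**Figure D3:**
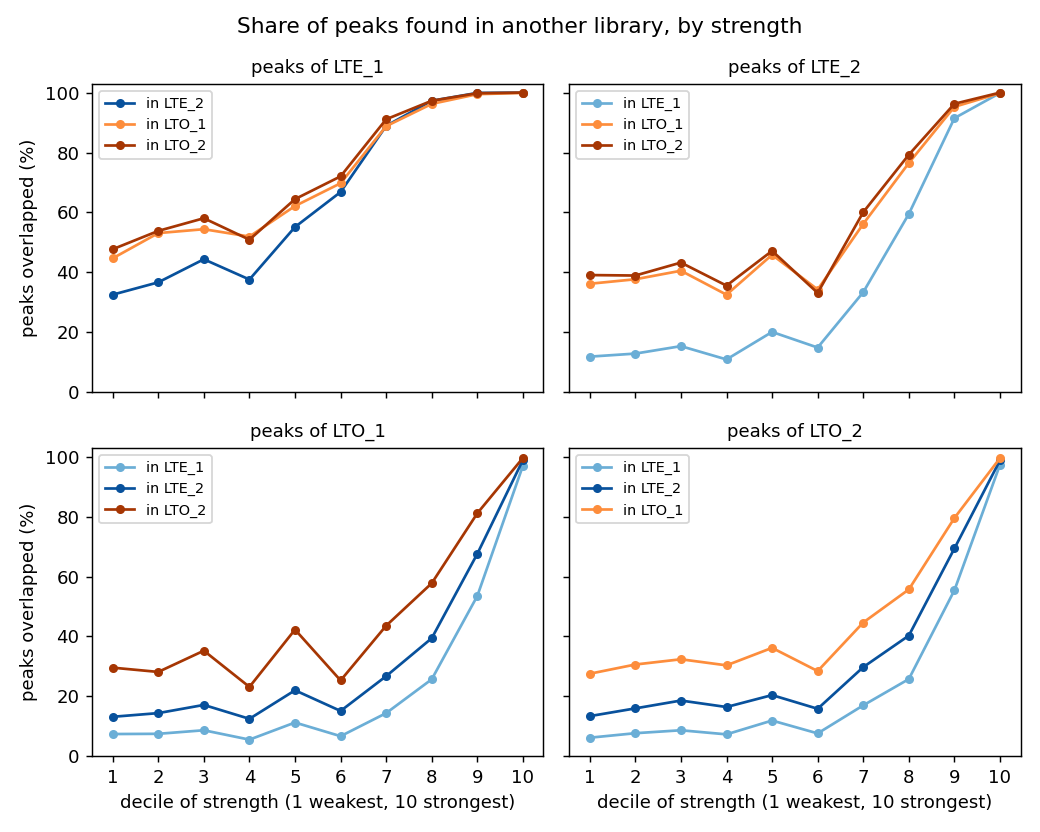
Share of the peaks of each library that overlapped a peak of another library by 1 bp or more, in 10 classes of strength from the weakest (1) to the strongest (10). All curves end between 97.0% and 100%, and at the weak end tender peaks are found more often in the tough than in the other tender library.

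The tough-specific regions had values close to those of all regions in the tough libraries. Their median pileup was 10 in LTO_1 and 9 in LTO_2, their median fold enrichment 5.97 and 6.41, and their median width 205 and 182 bp. Over all regions with a peak in these libraries, the median pileup was 10 in both, the fold enrichment 5.97 and 6.37, and the width 201 and 180 bp. Regions of LTO_1 alone had a median pileup of 9 and a width of 175 bp, and those of LTO_2 alone 9 and 156 bp. The tender-specific regions were similar, with a median pileup of 9 in both libraries, fold enrichments of 6.02 and 5.86, and widths of 173 and 171 bp.

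The authors also called peaks on the merged reads of LTE_1 and LTE_2, and this deeper list (11586162 tags) overlapped 2761 of the 4628 tough-specific regions (59.7%), with a median pileup of 10 and a fold enrichment of 5.61. Over all 49965 regions the share was 60.9%, but these include the regions with a peak of LTE_1 or LTE_2. Regions of LTO_1 alone and of LTO_2 alone, which have neither, were overlapped at 32.6% and 33.4%. The other 1867 tough-specific regions had no peak in a low tender list, and 1597 of them (85.5%) overlapped a peak in a medium or high tender list, single or merged. The merged medium tender list alone overlapped 85.1% of the 1867, against 89.3% of all tough-specific regions and 67.7% of all regions. In the other direction, 194 of the 250 tender-specific regions (77.6%) overlapped a peak of the merged tough list (13191401 tags). Over all regions, which include those with a tough peak, the share was 92.0%. For regions of LTE_1 alone and of LTE_2 alone it was 52.7% and 53.4%. These lists are made of the same reads and are no independent check. A fold enrichment of 8 or more in both libraries of the group was reached by 100 tough-specific regions, of which 19 lacked a merged tender peak, and by 2 tender-specific regions, none of which lacked a merged tough peak.

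The 5 tough-specific regions with the highest lower fold enrichment were chr6:62581414-62581696, chr7:76251069-76251314, chr12:73129239-73129599, chr13:11495727-11496010 and chr3:32738341-32738587. The first had pileups of 20 in LTO_1 and 21 in LTO_2 and fold enrichments of 13.9 and 14.6. The region on chromosome 7 had pileups of 23 and 18 and fold enrichments of 15.1 and 12.7, and among the single medium and high methylated libraries both tough medium ones, MTO_1 and MTO_2, had a peak there. The merged lists added a peak in tender medium and in tough high methylated DNA at this region. The regions on chromosomes 6 and 3, in contrast, had a peak in all 8 libraries of the other eluates. In the merged tender list all 5 had a peak of lower pileup (14, 9, 11, 12 and 11) than in the merged tough list (31, 36, 40, 40 and 22). Thus none of these 5 was empty in tender beef once the reads were merged.

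The 5 tender-specific regions chosen in the same way were chr1:69958996-69959543, chr1:85499562-85499763, chr22:59374035-59374259, chr8:56891336-56891506 and chr20:13172359-13172579. The first had pileups of 13 in LTE_1 and 17 in LTE_2 and fold enrichments of 9.26 and 10.3, and peaks there were also called in both tender medium libraries and in no single tough library. Merged tender pileups of the 5 were 24, 20, 25, 18 and 18, against 7, 9, 17, 15 and 10 in the merged tough list. No single medium tough library had a peak at any of the 5, and at least 1 medium tender library had one at 4 of them. The merged medium lists held a tender peak at all 5 and a tough peak at the regions on chromosomes 8 and 20. These peaks rested on pileups of 10 to 17 tags per library.

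The other eluates gave a second readout at the same places. Tough-specific regions overlapped a peak at 62.9% in MTE_1 and 64.1% in MTE_2, the medium libraries of tender beef, and at 49.0% in MTO_1 and 51.2% in MTO_2, those of tough beef. Over all 49965 regions these shares were 40.7% and 41.1% in MTE and 30.3% and 31.8% in MTO, and the MTE lists were the longer ones (33562 and 35688 peaks, against 23982 and 24797). Of the 250 tender-specific regions, 82 and 75 overlapped a peak in MTE and 25 and 36 in MTO. In the high methylated libraries the tough-specific regions were found at 19.6% to 23.9% and the tender-specific regions at 3.2% to 4.8%, while all regions were found at 14.7% to 17.0%. The 436 tough-specific regions of 50 or more were found in the high libraries at 72.9% to 79.6%. For the 3589 regions of all 4 low libraries in the same pileup class it was 85.4% to 88.5%. Regions of all 4 low libraries, of either pileup class, were found at 85.5% to 92.7% in the medium and at 68.3% to 71.1% in the high libraries.

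Over all peaks the median width did not separate the groups, with 210 bp in LTE_1, 183 bp in LTE_2, 201 bp in LTO_1 and 181 bp in LTO_2 (exact permutation test, p = 0.667). At the 5186 regions with a peak in all 4 libraries, it was higher in both tough than in both tender libraries, with 283 bp in LTE_1, 311 bp in LTE_2, 364 bp in LTO_1 and 332 bp in LTO_2. The difference of the median log2 widths was 0.23 with a pooled SD of 0.095 (n = 2 libraries a group, exact permutation test, p = 0.333, the smallest possible). Region by region the difference was smaller, with a median of 0.11 on the log2 scale, or 1.08-fold, and 90% of the regions between -0.26 and 0.83. Divided by the fragment length d of each library, the difference of the medians was 0.19. In regions below 50 the medians were 218, 239, 283 and 248 bp, and in regions of 50 or more 355, 390, 436 and 398 bp, the same order in both classes. This was also the order of depth, with 5770411 tags in LTE_1, 7165381 in LTE_2, 7981292 in LTO_1 and 7212507 in LTO_2. The groups thus differed in depth as well, and its part in the widths was not tested.

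Both tough peaks were wider than both tender peaks at 1928 regions (37.2% of those compared), and both were narrower at 275 (5.3%). In the fit by limma across all 5186 regions, 0 (0%) passed an adjusted p of 0.05 on width. The smallest adjusted p was 0.101, and 557 regions had an unadjusted p under 0.05, of which 505 were wider in tough beef. Without LTE_1, 7534 regions had a peak in the other 3 libraries, with median widths of 257 bp in LTE_2, 310 bp in LTO_1 and 281 bp in LTO_2. Both tough peaks were then wider than that of LTE_2 at 3698 regions (49.1%) and narrower at 1305 (17.3%), and limma, with a tender arm of 1 library, called 0 (0%), with 698 at an unadjusted p under 0.05.

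**Figure D4:**
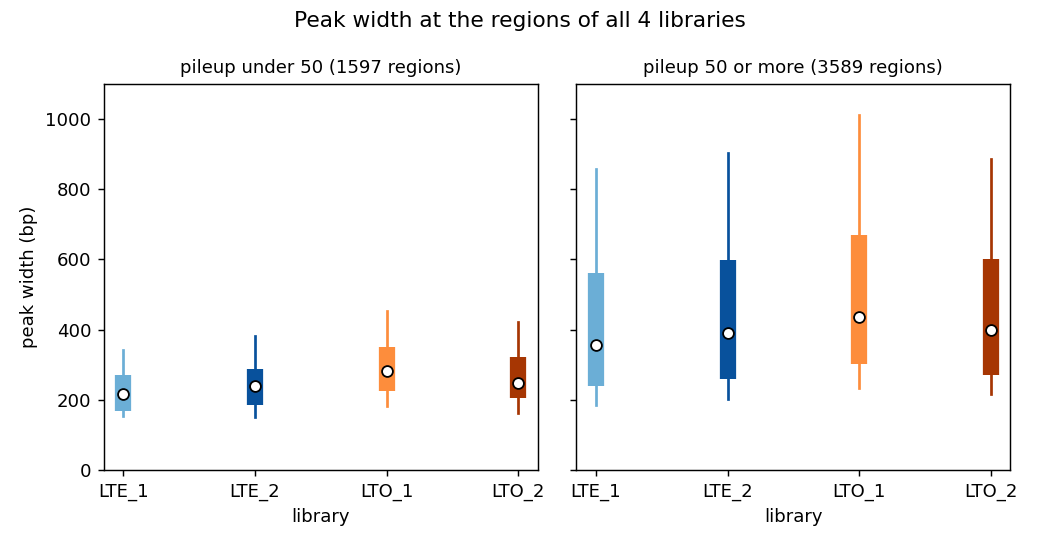
Peak width in bp at the regions with a peak in all 4 libraries, for regions whose peaks all stay below a pileup of 50 and for those that reach it; circles are medians, thick bars the middle 50% and thin lines the range from the 10th to the 90th percentile of regions. In both panels the medians of the 2 tough libraries lie above those of the 2 tender libraries, and the ranges overlap widely.

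The largest positive difference in width among the regions without overlap was at chr21:57953380-57953965, with 155 and 147 bp in tender and 572 and 584 bp in tough libraries. Its tender peaks were as narrow as the fragment length d, with pileups of 8 and 8, and the tough pileups were 11 and 13. The log2 width difference was 1.94 (SE 0.076) with an adjusted p of 0.101 in limma. At chr10:104032639-104033704 the widths were 367 and 255 bp in tender and 1066 and 1048 bp in tough libraries, and the pileups were 11 and 10 in tender and 43 and 38 in tough libraries. The regions chr23:3342652-3343750, chr4:33090404-33091259 and chr27:5538356-5539274 had log2 width differences of 1.86, 1.76 and 1.69. All 5 were of low pileup, at most 43 in any library.

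The largest negative difference was at chr6:92538220-92538735, with 516 and 497 bp in tender and 192 and 146 bp in tough libraries. Its pileups were 22 and 27 in tender and 12 and 8 in tough libraries, so pileup and width differed in the same direction. The log2 width differences of chr29:30377845-30378812, chr3:53470703-53471276, chr7:105920231-105921029 and chr18:58241953-58242543 were -1.29, -1.24, -1.13 and -1.12. On chromosome 29 the widths were 959 and 968 bp in tender and 385 and 403 bp in tough libraries, while the pileup, 247 and 238 against 258 and 226, did not separate the groups. None of the 10 regions passed in limma.

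The pileup depends on the depth of a library, so its rank among the 5186 shared regions was compared within each library. The ranks were close in all pairs of libraries, with Spearman correlations from 0.954 to 0.983 over the 5186 regions, which share position, base composition and mappability and are a description only. The tender pair had 0.983 and the tough pair 0.970. Across the groups, LTE_1 and LTE_2 had 0.971 and 0.974 with LTO_2, above the tough pair, and 0.954 and 0.956 with LTO_1. Between single libraries, the absolute difference in percentile had a median of 2.71 percentage points for LTE_1 and LTE_2 and of 3.28 for LTO_1 and LTO_2. The 4 pairs of a tender and a tough library had 4.18 (LTE_1 and LTO_1), 3.44 (LTE_1 and LTO_2), 3.99 (LTE_2 and LTO_1) and 3.297 (LTE_2 and LTO_2). By this measure over all 5186 regions, pairs across the groups lay above both pairs within a group, the last of them by little. In regions of 50 or more, LTE_2 and LTO_2 had 3.06, below the 3.23 of the tough pair, and the other pairs across the groups lay above it. The order thus depended on the measure and on the regions, and it was not tested. In regions below 50 the correlations were lower, from 0.733 to 0.801.

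Both tough ranks were above both tender ranks at 1280 regions (24.7%) and below at 1173 (22.6%). Ranks over the same regions have the same mean in each library, so higher and lower ranks must about balance, and no direction can be read from these numbers. In limma on normal scores of the ranks, 0 (0%) of 5186 regions passed, the smallest adjusted p was 0.234, and 689 had an unadjusted p under 0.05, of which 324 were higher in tough beef. Without LTE_1, both tough ranks were above that of LTE_2 at 2779 of 7534 regions (36.9%) and below at 2505 (33.2%), and limma, again with LTE_2 as the whole tender arm, called 0 (0%), with 629 at an unadjusted p under 0.05.

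Among the regions whose groups did not overlap, the largest positive difference in rank was at chr13:16326151-16327098. Its pileup was 69 in LTE_1, 100 in LTE_2, 174 in LTO_1 and 142 in LTO_2, which put it at percentiles of 42.0, 52.0, 79.8 and 71.5. The next 4 were chr1:135832749-135833669, chr1:139204355-139204944, chr12:70240618-70241618 and chr27:6858457-6858815, with differences of 25.3, 25.2, 24.6 and 24.0 percentage points. All 5 had a peak in each of the 8 medium and high libraries. The fold enrichment was higher in both tough libraries at 3 of the 5, for example 3.28, 3.21, 3.49 and 3.77 at chr1:139204355-139204944, and overlapped between the groups at chr1:135832749-135833669 and chr27:6858457-6858815.

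The largest negative difference in rank was at chr21:2124941-2125377, where pileups of 131 and 130 in tender and 125 and 109 in tough libraries stood at percentiles of 83.1 and 72.6 against 44.9 and 46.8. There the fold enrichment was also lower in tough beef, with 2.06 and 2.26 against 3.76 and 2.997. The other 4, chr18:43800172-43800567, chr1:154659170-154659468, chr11:106224698-106225167 and chr10:58885697-58887160, had differences of -30.9, -29.9, -29.6 and -29.4 percentage points. The fold enrichment was also lower in both tough libraries on chromosome 11, with 32.8 and 33.2 against 25.98 and 29.4, and on chromosome 10, with 9.10 and 8.78 against 8.01 and 8.10. On chromosome 18 it overlapped between the groups, with 16.1 and 15.4 against 15.6 and 15.8, as it did at chr1:154659170-154659468. The adjusted p of the 10 regions in limma on the ranks ranged upward from 0.234, so none passed.

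At the top of the ranks the libraries agreed in position. The 3 regions with the highest mean percentile were chr1:61603230-61604777, chr28:2648963-2649804 and chr1:145421257-145422139. The first had pileups of 299, 290, 304 and 274 and widths of 1528, 1527, 1548 and 1516 bp in LTE_1, LTE_2, LTO_1 and LTO_2, with fold enrichments of 7.65 to 8.10. The other 2 had comparable pileups and fold enrichments under 2. All 3 were near the ceiling of the pileup, which bounds any difference between animals there. At the first, limma on the normal scores of the ranks gave a difference of -0.837 (SE 0.104, adjusted p = 0.234), which did not pass.

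Whether the difference was spread evenly over the genome was asked with the share of a library's peaks in windows of 5 Mb. Of 423 windows, limma called 7 with a higher share in tough beef (1.65% of windows) and 6 with a lower share (1.42%). The 7 windows had almost no peaks of 50 or more (median 0%, at most 1.08%), and in the 6 windows such peaks made up between 40.4% and 80.3%. In the 100 windows with no peak of 50 or more the median log2 difference was 0.35, and 91 of them were higher in tough beef. In the 71 windows with more than 40% of such peaks it was -0.34, and 68 were lower. Tough beef had 2.57 times as many peaks below 50 and 1.23 times as many of 50 or more. A window of weak peaks alone must therefore tend to a higher share in tough beef, and one rich in the others to a lower share. The direction of the differences and calls thus restates those numbers and is no separate result on genomic position. With the peaks below 50 alone, a setting added after seeing the data, limma called 0 of 349 windows, and 26 had an unadjusted p under 0.05. With a library left out its group has 1 library, and the spread comes from the other group's pair, so a changed number of calls cannot be told apart from lost replication. There was 1 call without LTE_1, which was 25 to 30 Mb of chromosome 27, 56 without LTE_2, and 0 without LTO_1 or without LTO_2 (43 and 30 at an unadjusted p under 0.05).

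**Figure D5:**
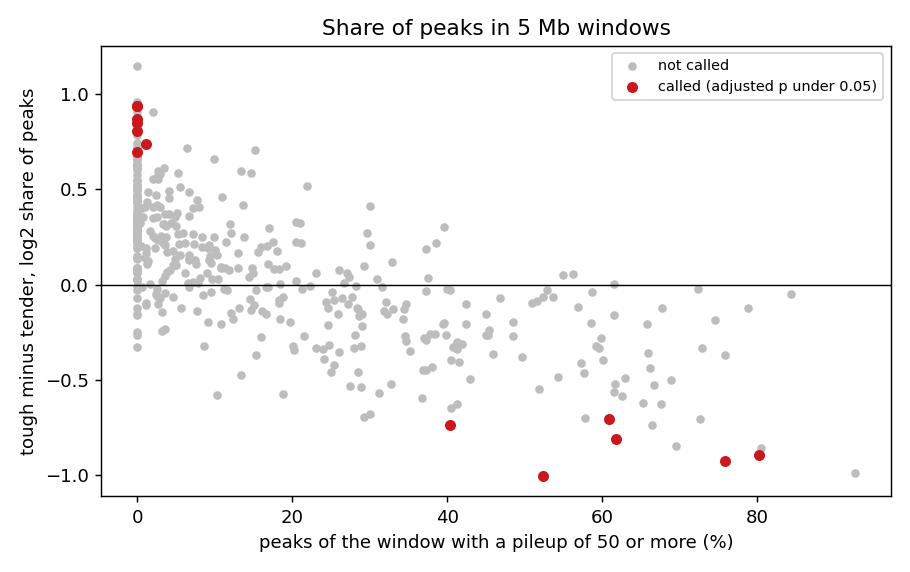
Difference between tough and tender beef in the log2 share of peaks (vertical axis) of 423 windows of 5 Mb, against the percentage of the window's peaks with a pileup of 50 or more (horizontal axis); red points passed an adjusted p of 0.05 in limma. Windows without such peaks lie mostly above 0 and windows rich in them below 0. This order follows from the number of peaks that each pileup class had in the groups.

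The window with the lowest relative share in tough beef was 35 to 40 Mb of chromosome 16, with 26, 33, 32 and 33 peaks in LTE_1, LTE_2, LTO_1 and LTO_2. Over all chromosomes the tough libraries had 2.13 times as many peaks on average, and the near equal numbers here gave a log2 difference in share of -1.003 (SE 0.22, adjusted p = 0.0277 in limma). The next 4 were 25 to 30 Mb of chromosome 27 (302, 368, 352 and 394 peaks), 55 to 60 Mb of chromosome 7 (57, 75, 81 and 72), 30 to 35 Mb of chromosome 29 (141, 167, 179 and 188) and 70 to 75 Mb of chromosome 8 (203, 252, 250 and 308). Those on chromosomes 7 and 29 were called, and those on chromosomes 27 and 8 were not (adjusted p = 0.0807 and 0.0820).

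The window with the highest relative share was 20 to 25 Mb of chromosome 22, with 3, 17, 40 and 36 peaks and a log2 difference of 1.15 (SE 0.41), which was not called (adjusted p = 0.125). The first 5 Mb of chromosome 6 had 7, 13, 51 and 36 peaks, and 110 to 115 Mb of chromosome 3 had 10, 42, 86 and 89, neither called. Calls were made for 45 to 50 Mb of chromosome 19 (10, 20, 60 and 64 peaks) and 60 to 65 Mb of chromosome 24 (15, 33, 91 and 102 peaks), both with an adjusted p of 0.0277. None of these 5 windows had a peak of 50 or more.

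Shared regions of high pileup were gathered in a few places. The 20 windows of 1 Mb with the most of them held 33.9% of the 3589. The densest was 28 to 29 Mb of chromosome 27 with 229 regions, followed by 74 to 75 Mb of chromosome 8 with 157, 145 to 146 Mb of chromosome 1 with 122 and 30 to 31 Mb of chromosome 29 with 112. Tough-specific regions were more evenly spread, with 6.24% in their 20 densest windows. At most 36 lay in one, at 82 to 83 Mb of chromosome 3, which held 161 regions of any kind. The 2 sets also differ in pileup, since only 436 of the 4628 tough-specific regions reached 50. The share was not taken over all regions, so the spread cannot be ascribed to being tough-specific. Tender-specific regions were too few for such a comparison, with at most 5 in a window.

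By chromosome, the share of regions that were tough-specific varied little, from 7.77% on chromosome 22 (110 of 1416) to 10.8% on chromosome 12 (169 of 1563). The share of regions with a peak in all 4 libraries varied more, from 5.05% on chromosome 12 to 24.3% on chromosome 27. In the share of a library's peaks, limma called 3 of 29 chromosomes higher in tough beef (10.3%) and 2 lower (6.9%). In the fits by chromosome limma took the spread from the trend over all chromosomes. The spread between the libraries at a given chromosome did not enter, so these calls are less certain than their p-values. Chromosomes 26, 12 and 23 were higher, and chromosome 26 had 1.601% and 1.617% of the peaks of LTE_1 and LTE_2 and 2.00% and 2.04% of those of LTO_1 and LTO_2. Chromosomes 27 and 8 were lower, and chromosome 27 had 5.70% and 4.79% in tender and 3.89% and 4.06% in tough libraries. Without LTE_1, limma called chromosome 26 as higher and chromosome 8 as lower and no other. With the peaks below 50 alone, none of these 5 was called, and chromosome 14 was, with a lower share in tough beef (log2 difference -0.21, SE 0.057, adjusted p = 0.0127 in limma). Chromosomes 14, 8, 23, 26 and 27 fall outside the rule for chromosomes and were picked with their values in view.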

How the data were processed

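MBD-seq libraries of low methylated DNA from 2 tender and 2 tough Angus steers were compared from the deposited peak lists. Reads had been filtered with SOAPnuke and mapped uniquely to bosTau8 with BWA (0.7.7 in the submitters' processing notes). The authors then ran MACS2 on each library (2.1.1.20160309) and on merged replicates (2.1.0.20150731) with a q-value limit of 0.01 and no input control, counting 1 tag per position and using a local window of 10000 bp. The deposited lists give the width of each peak in bp and its pileup, a signal of extended tags at the summit that is not scaled by depth. They also give the fold enrichment over the local lambda, computed by the authors, and the deposited −log10 p-value and −log10 q-value. Depth (5770411 to 7981292 tags) can therefore affect which peaks exist. Read counts per region, genes, CpG islands and repeats were not analysed here.

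Peaks of the 4 libraries sharing 1 bp or more were joined with Python 3.11.15, numpy 2.4.6 and pandas 2.3.3, and bedtools 2.31.1 gave the same regions. The widest peak and the highest pileup of a library in a region were its values. Group means were compared by exact permutation tests (scipy 1.17.1). Log2 widths, normal scores of the pileup ranks and log2 shares of peaks in windows of 5 Mb (at least 20 peaks on average, 0.5 added to each count) were fitted with limma 3.58.1 in R 4.3.3, with Benjamini-Hochberg adjustment over all features and a threshold of 0.05. The code was tested on simulated data. Among 5186 simulated regions, limma found 0 of 200 planted differences of 0.5, in log2 width or in normal scores of rank. Of 200 differences of 1 it found 71 on width and 129 on rank. A result of 0 calls therefore does not show that smaller differences were absent.

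Regions were named by rule: the 5 tough-specific and 5 tender-specific regions with the highest lower fold enrichment, the 5 largest and 5 smallest differences in rank and in width among those without overlap between groups, the 3 highest ranks, the 5 largest and 5 smallest differences in window share, and the chromosomes with the highest and lowest tough-specific share. The regions, lists and rules were chosen with earlier results of these data known. Alternatives were −log10 q of at least 5, peaks enriched at least 3-fold, overlap of 50% of the shorter peak, the same number of peaks per library, each library left out, a replicate block, other ranks, summed width, windows of 2 Mb and whole chromosomes. Those with peaks below a pileup of 50, with width divided by d, with the same number of peaks without LTE_1, and with chromosomes without each library were added after seeing the data.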

Additional observations from a re-analysis of the deposited data

Results flagged for a closer look

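The lists also held peaks outside chromosomes 1 to 29, which no comparison above uses. On chromosome X there were 386 peaks in LTE_1, 602 in LTE_2, 885 in LTO_1 and 818 in LTO_2, or 1.72 times as many in tough as in tender beef on average (1.41 without LTE_1). They made up 3.88%, 3.44%, 3.09% and 2.78% of the peaks of these libraries. On the mitochondrial genome there were 3 peaks in LTE_1, 4 in LTE_2, 3 in LTO_1 and 1 in LTO_2. Both were flagged because they are a signal in data left out of the report, and neither was tested.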

How the results depend on the processing

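Log2 ratios of the number of regions kept their direction, with 0.025 for the same number of peaks per library, 0.0057 for the same number of peaks below 50 and 0.014 for the same number without LTE_1, which set the lists equal by construction, and 0.757 to 1.597 with each library left out. Tough-specific regions numbered 580 with the same number of peaks, 506 with the same number below 50, 1828 with the same number without LTE_1, and 5312 to 17677 with a library left out. Tender-specific regions numbered 492, 460 and 7503 under these settings, 5558 with peaks below 50 without LTE_1, and 491 to 5610 with a library left out; without a tender library, they are those of a single library. The width difference stayed positive in all 14 alternatives and was lowest, 0.126, with the same number of peaks below 50, where the groups overlapped (exact permutation test, p = 0.667), and 0.159 to 0.301 with a library left out. No alternative called a region on width. On pileup rank, limma called 278 of 5186 regions (261 higher in tough beef) with ranks over all peaks of a library. There the longer tough lists add weak peaks below the shared ones. With the same number of peaks below 50, limma called 3 of 875 regions. These 3 were chr10:104032639-104033704, higher in tough beef, and chr2:66269869-66270384 and chr13:54020193-54020709, lower; the latter 2 were picked with their values in view. Of the window calls, 13 in the report, 41 were made with 2 Mb, 5 with whole chromosomes, 0 and 1 with peaks below 50 in windows and in chromosomes, and 0 to 56 with a library left out, which leaves an arm of 1 library (1 to 6 in whole chromosomes). Replicate numbers name different animals in the 2 groups, and the deviations of same-numbered libraries correlated at -0.024 (width), 0.015 (rank) and -0.0052 (windows). With the replicate block, limma called 0 windows (74 at an unadjusted p under 0.05) and 0 regions on width or rank. For windows of 2 Mb, whole chromosomes and ranks over all peaks, limma took the spread from all features together. The spread of a single feature did not enter those calls. The weak peaks mostly rested on about 10 tags. LTE_2 and LTO_2, of nearly the same depth, had 12158 and 23165 peaks below 50, which sets 1 animal against 1 animal and was not tested.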
